A study of Mus musculus with 9 samples.

Results

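Matrix glycoproteins and small proteoglycans were followed in whole testis through the first wave of spermatogenesis. The genes are Fn1, Postn, Fbln1, Sparc, Tnc, Eln, Fbn1, Dcn, Lum and Bgn, 10 in all, chosen as matrix genes and matched to array rows whose gene symbol was exactly one of these. For 9 of them a row was found, 1 row each, among 19935 genes with a value. Fbn1, which encodes the microfibril protein fibrillin 1, had no row under its symbol and is not analysed here. The mice were untreated Swiss albino males from an inbred line, and each age (8, 16 and 24 days) had 3 arrays, called biological replicates in the design text, or 9 arrays in all. The sources used here do not say whether an array holds RNA of 1 animal or of several. The arrays whose titles carry the numbers 1 and 2 are called replicates 1 and 2, and the array with no number in its title is called replicate 3.

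The extracellular matrix of the testis surrounds the seminiferous tubules, where peritubular myoid cells and Sertoli cells lay down the tubule wall, and fills the interstitium with its fibroblasts and vessels. Fibronectin, tenascin C, fibulin 1, periostin and SPARC are secreted glycoproteins that bind collagens, each other and cell surface receptors, elastin forms elastic fibres, and decorin, lumican and biglycan are small leucine-rich proteoglycans that bind collagen fibrils. Germ cells fill the tubules as the first wave advances, while most of the matrix is made by somatic cells. In whole testis, a smaller share of cells of a type and less RNA per cell cannot be told apart.

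The deposited values are on a log2 scale and set to 0 at the median array of each row, so that they show differences between ages for a gene and give no expression level, and levels cannot be compared between genes. Each of the 9 genes had 1 blank cell, which was set to 0. The number of arrays limits the precision. A change was called at an adjusted p under 0.05 by limma over all 19935 genes. Markers of testis cells behaved by age as follows: 5 of 5 spermatocyte markers rose at 16 versus 8 days, where 10.4% of all genes rose. At 24 versus 16 days 6 of 6 spermatid markers rose, where 13.2% of all genes did. Some arrays stood apart. The median of 1027 olfactory receptor genes, which encode odorant receptors, was 0.17 both for the first 8-day replicate and for the second 16-day replicate, while the remaining 7 arrays had medians between -0.046 and 0.031. Among the 9 matrix genes, 7 had their lowest 16-day value on replicate 2. At 24 days 7 were lowest on replicate 1, and at 8 days 7 were highest on replicate 2. Matching counts over all genes are not given, and whether these arrays shifted as a whole was not tested. The median of all genes was -0.0982 for 24-day replicate 1, against -0.0715 and -0.0672 for replicates 2 and 3. For 16-day replicate 2 it was 0.0232, above the 0.0 of replicates 1 and 3. For 8-day replicate 2 it was 0.0, below the 0.1207 of replicate 1.

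Promoters of 5 of the 9 genes (Postn, Tnc, Sparc, Fbln1 and Bgn, with 8 start sites) were in the RefSeq promoter table of build GRCm38.p6. Shown here are the 250 bases before a start of the gene that fell and rose again (Postn), of the gene for which no change was called (Tnc) and of 2 genes that fell in both intervals (Fbln1 and Bgn), each 5′ to 3′ on the strand of the gene. Capitals mark matches on either strand to TATANA (TATA box) and GGGCGG (GC box). A CCAAT box with the letters CCAAT, an AP-1 site with the letters TGANTCA and a TEAD site with the letters GGAATG were also searched on both strands. They had no match in the promoters of these 5 genes, where 33.8%, 6.75% and 12.6% of all promoters of this length held them.
Postn, downstream start (chr3:54360857-54361106, plus strand): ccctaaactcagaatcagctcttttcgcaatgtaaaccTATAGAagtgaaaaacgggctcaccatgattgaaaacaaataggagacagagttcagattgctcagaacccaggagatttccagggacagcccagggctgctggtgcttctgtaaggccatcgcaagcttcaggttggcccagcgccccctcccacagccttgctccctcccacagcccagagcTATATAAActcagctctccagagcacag
Tnc, downstream start (chr4:64046937-64047186, minus strand): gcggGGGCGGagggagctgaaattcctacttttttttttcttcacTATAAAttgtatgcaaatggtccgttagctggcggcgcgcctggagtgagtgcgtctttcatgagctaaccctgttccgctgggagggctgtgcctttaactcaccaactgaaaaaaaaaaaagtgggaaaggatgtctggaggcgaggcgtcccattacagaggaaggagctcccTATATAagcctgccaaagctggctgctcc
Fbln1, downstream start (chr15:85205758-85206007, plus strand): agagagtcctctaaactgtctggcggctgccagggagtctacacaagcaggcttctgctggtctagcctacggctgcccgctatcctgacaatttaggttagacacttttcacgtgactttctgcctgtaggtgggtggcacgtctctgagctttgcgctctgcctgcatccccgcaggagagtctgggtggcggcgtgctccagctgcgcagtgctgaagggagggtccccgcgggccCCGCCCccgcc
Bgn (chrX:73483351-73483600, plus strand): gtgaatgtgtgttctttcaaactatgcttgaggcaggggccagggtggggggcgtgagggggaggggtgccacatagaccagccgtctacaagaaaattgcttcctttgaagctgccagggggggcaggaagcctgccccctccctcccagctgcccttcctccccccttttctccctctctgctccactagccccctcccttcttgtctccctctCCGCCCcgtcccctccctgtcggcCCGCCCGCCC
The downstream start of Postn held overlapping TATANA matches at 28 and 26 bases before the start and one at 212 bases. The downstream start of Tnc held TATANA at 29 and 205 bases and a GC box at 246 bases before it. The downstream start of Fbln1 had 1 GC box at 11 bases and Bgn had 3, at 34, 10 and 6 bases, the last 2 overlapping. Neither held TATANA. Of the starts not shown, the upstream starts of Postn and Fbln1 and the start of Sparc held no match to either motif. The upstream start of Tnc held TATANA at 126 bases and a GC box at 167 bases. Over all 32851 promoters of this length, 22.6% held TATANA and 32.7% held GGGCGG, so that a match is common. The motifs were chosen after the values were known, and a match is a description of letters.

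Over the whole span, 8 of the 9 genes fell, all of them with no overlap between the arrays of the ages, where 35.2% of all genes fell and the arrays of 45.0% of all genes were lower without overlap. The changes of these 8 genes at 24 versus 8 days ran from -1.93 for Fn1 to -0.61 for Sparc on the log2 scale. The median change of the 9 genes was -1.08, beside -0.18 over all genes. None rose, against 19.2% of all genes, and none had its 24-day arrays all above its 8-day arrays, against 20.5%. Fn1, Fbln1, Eln and Bgn, 4 of the 9, fell in both intervals, where 8.42% of all genes did. With centred arrays Fbln1 was not called at 16 versus 8 days (adjusted p 0.0547). Bgn was not called at 24 versus 16 days (adjusted p 0.103). Both calls were also lost with blanks left missing (adjusted p 0.0604 and 0.101). On the fewer arrays with numbered titles, none of the 4 genes was called in both intervals. Eln was called in neither there (adjusted p 0.141 and 0.0713 with a replicate block, 0.108 and 0.0540 without). Fn1 was not called at 24 versus 16 days (adjusted p 0.0900 with the block and 0.0651 without). The 8 calls at 24 versus 8 days held with each of the 9 arrays left out in turn and with the arrays centred on their medians. They also held without replicate 1 of 8 days and replicate 2 of 16 days together. Over all genes 7015 fell at 24 versus 8 days, against 5236 with centred arrays and 7308 without those 2 arrays. With 1 array left out, 5829 to 7386 of all genes fell. On the 6 arrays with numbered titles 7 of the 8 calls held, all but that of Sparc. There 4571 of all genes fell with a replicate block and 5247 without it.

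**Figure D1:**
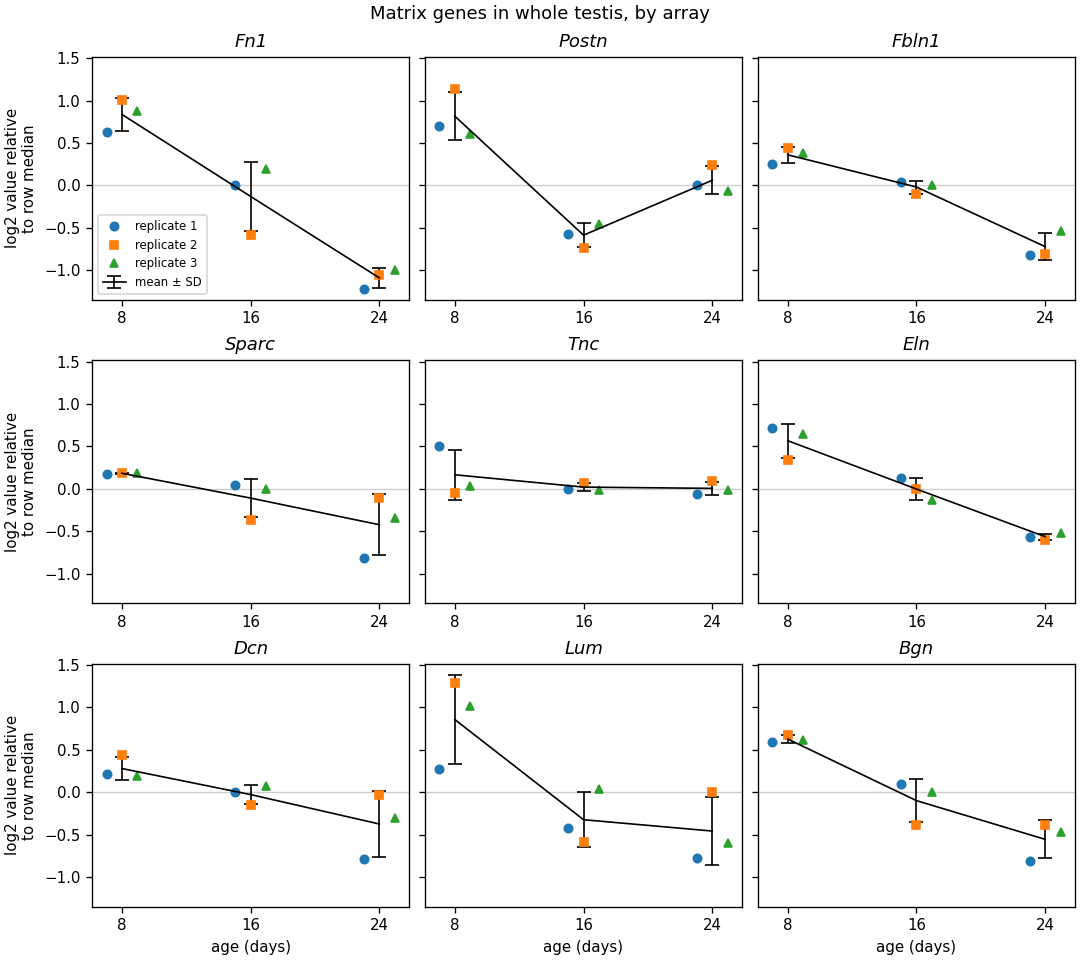
Log2 value relative to the row median (y axis) of each of the 9 matrix genes at 8, 16 and 24 days (x axis), with a symbol per replicate and the mean ± SD of 3 arrays in black. The means of all genes but Postn step down at each age, with a call in both intervals for Fn1, Fbln1, Eln and Bgn. Postn is lowest at 16 days, and Tnc lies between -0.063 and 0.090 apart from 0.50 in replicate 1 of 8 days.

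Fibronectin, the adhesive glycoprotein that joins collagens to integrins on cells, had the largest fall of the 9 genes at 24 versus 8 days, while Postn and Lum fell more at 16 versus 8 days. Fn1 (gene ID 14268, chromosome 1) had values of 0.63, 1.01 and 0.87 at 8 days, 0.00, -0.59 and 0.19 at 16 days, and -1.22, -1.05 and -1.0025 at 24 days in replicates 1, 2 and 3. The 3 ages did not overlap, and the 16-day arrays were the most spread, with replicate 2 the lowest of them. It fell by 0.97 ± 0.18 at 16 versus 8 days (standard error; adjusted p 0.00409) and by 0.96 ± 0.18 at 24 versus 16 days (adjusted p 0.00421). At 24 versus 8 days Fn1 was 3.80-fold lower (adjusted p 1.50e-05).

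Periostin, a matricellular protein that binds collagen and fibronectin, was the only one of the 9 genes with a called rise. Postn (gene ID 50706, chromosome 3) had values of 0.70, 1.13 and 0.61 at 8 days, -0.57, -0.74 and -0.45 at 16 days, and 0.00, 0.24 and -0.065 at 24 days. The arrays of each age lay apart from those of the others, lowest at 16 days and between the other ages at 24 days. Postn fell by 1.40 ± 0.15 at 16 versus 8 days, or 2.64-fold (adjusted p 0.000112), and rose by 0.65 ± 0.15 at 24 versus 16 days, or 1.57-fold (adjusted p 0.00937). At 24 days it was still lower than at 8 days, with a change of -0.76 ± 0.15 (adjusted p 0.00154). The change of the second interval minus that of the first was 2.05 ± 0.26 (adjusted p 0.00110), where 5.38% of all genes were called in either direction. Of all genes, 56 (0.281%) were called lower by 16 days and higher again by 24 days. With 1 array left out, the rise at 24 versus 16 days ran from 0.56 to 0.71 and stayed called in 9 of 9 fits.

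Fibulin 1, a calcium-binding glycoprotein of basement membranes and elastic fibres, fell in both intervals. Fbln1 (gene ID 14114, chromosome 15) had values of 0.25, 0.44 and 0.38 at 8 days, 0.045, -0.10 and 0.00 at 16 days, and -0.82, -0.81 and -0.54 at 24 days. The ages did not overlap, and the step to 24 days was the larger. Its change was -0.38 ± 0.10 at 16 versus 8 days (adjusted p 0.0220) and -0.70 ± 0.10 at 24 versus 16 days (adjusted p 0.000998). The first of these calls was lost when replicate 2 or 3 of 8 days or replicate 2 of 16 days was left out (adjusted p up to 0.0778), and also with centred arrays and with blanks left missing. The difference between the intervals was not called (-0.32 ± 0.18, adjusted p 0.440).

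SPARC, a collagen-binding matricellular protein, fell over the whole span, with no call in either interval. Sparc (gene ID 20692, chromosome 11) had values of 0.18, 0.19 and 0.18 at 8 days, 0.043, -0.37 and 0.00 at 16 days, and -0.82, -0.11 and -0.34 at 24 days. The 8-day arrays were close together and above all others, while the 24-day arrays were widely spread and overlapped those of 16 days. Its change was -0.29 ± 0.17 at 16 versus 8 days (adjusted p 0.287, 95% interval -0.68 to 0.091) and -0.31 ± 0.17 at 24 versus 16 days (adjusted p 0.174, 95% interval -0.70 to 0.070). With 1 array left out these changes ran from -0.37 to -0.16 and from -0.47 to -0.12, and none was called. At 24 versus 8 days it fell by 0.61 ± 0.17 (adjusted p 0.0127). On the 6 arrays with numbered titles that call was lost (adjusted p 0.0834 with a replicate block and 0.0714 without it).

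Tenascin C, a hexameric glycoprotein that modulates adhesion to fibronectin, had no called change. Tnc (gene ID 21923, chromosome 4) had values of 0.50, -0.045 and 0.038 at 8 days, 0.00, 0.074 and -0.014 at 16 days, and -0.063, 0.090 and -0.012 at 24 days. Apart from replicate 1 of 8 days, one of the arrays with raised olfactory receptor values, the arrays lay between -0.063 and 0.090 and the ages overlapped. Its change at 24 versus 8 days was -0.16 ± 0.13 (adjusted p 0.329, 95% interval -0.46 to 0.14), and it was 0.0085 without replicate 1 of 8 days.

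**Figure D2:**
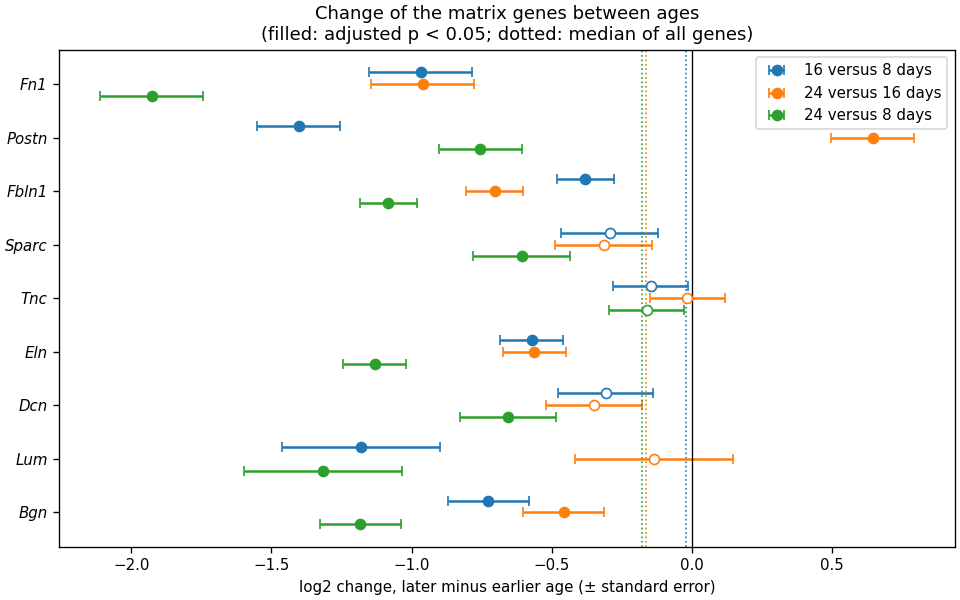
Log2 change, later minus earlier age, with its standard error (x axis) for each of the 9 genes (y axis) in the 3 comparisons, filled where the adjusted p was under 0.05. Dotted lines are the medians of all genes, at -0.019, -0.16 and -0.18. All changes except the rise of Postn at 24 versus 16 days lie below 0, and that of Tnc in the same interval is above 0 with centred arrays.

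Elastin, the core protein of elastic fibres, fell by nearly the same step in each interval. Eln (gene ID 13717, chromosome 5) had values of 0.72, 0.34 and 0.64 at 8 days, 0.12, 0.00 and -0.13 at 16 days, and -0.57, -0.60 and -0.53 at 24 days. The ages did not overlap, and the 24-day arrays were the closest together. Its change was -0.57 ± 0.11 at 16 versus 8 days (adjusted p 0.00489) and -0.56 ± 0.11 at 24 versus 16 days (adjusted p 0.00515), and at 24 days it was 2.19-fold lower than at 8 days (adjusted p 1.91e-05).

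The 3 small leucine-rich proteoglycans all fell over the whole span, and for none of them was the difference between the intervals called. Biglycan, which carries chondroitin or dermatan sulphate chains and binds collagen, fell in both intervals. Bgn (gene ID 12111, chromosome X) had values of 0.59, 0.68 and 0.62 at 8 days, 0.0945, -0.39 and 0.00 at 16 days, and -0.81, -0.39 and -0.47 at 24 days. The 8-day arrays lay above all others, and the 16-day and 24-day arrays overlapped through replicate 2 of 16 days. Its change was -0.73 ± 0.15 at 16 versus 8 days (adjusted p 0.00517), -0.46 ± 0.15 at 24 versus 16 days (adjusted p 0.0361) and -1.18 ± 0.15 at 24 versus 8 days (adjusted p 7.20e-05). The call at 24 versus 16 days was lost without replicate 3 of 8 days or replicate 1 or 3 of 16 days. Leaving out replicate 1 or 3 of 24 days ended it too (adjusted p up to 0.138 over these fits). It was also lost with centred arrays (adjusted p 0.103), with blanks left missing (0.101) and with only the 2 ages compared (0.0621).

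Lumican, a keratan sulphate proteoglycan that spaces collagen fibrils, fell between 8 and 16 days and showed no called change after that. Lum (gene ID 17022, chromosome 10) had values of 0.27, 1.29 and 1.01 at 8 days, -0.42, -0.59 and 0.040 at 16 days, and -0.77, 0.00 and -0.60 at 24 days. It had the widest spread within an age of the 9 genes, with an SD of 0.53 at 8 days, and the 16-day and 24-day arrays overlapped. Its change was -1.18 ± 0.28 at 16 versus 8 days (adjusted p 0.0125) and -0.13 ± 0.28 at 24 versus 16 days (adjusted p 0.712, 95% interval -0.76 to 0.50). The difference between the intervals, 1.05 ± 0.49, was not called (adjusted p 0.344).

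Decorin, which binds collagen fibrils and the growth factor TGF-beta, ran close to SPARC. Dcn (gene ID 13179, chromosome 10) had values of 0.22, 0.43 and 0.19 at 8 days, 0.00, -0.15 and 0.072 at 16 days, and -0.79, -0.032 and -0.30 at 24 days. The 8-day arrays lay above all others, while those of 16 and 24 days overlapped. Its change was -0.31 ± 0.17 at 16 versus 8 days (adjusted p 0.256), -0.35 ± 0.17 at 24 versus 16 days (adjusted p 0.138) and -0.65 ± 0.17 at 24 versus 8 days (adjusted p 0.00828). The change at 24 versus 16 days was called only without replicate 2 of 24 days (adjusted p 0.0387), and the change at 24 versus 8 days ran from -0.83 to -0.45 with 1 array left out. Among all pairs of the 9 genes, Sparc and Dcn had the smallest root mean square difference over the 9 arrays, 0.12.

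Between 8 and 16 days 6 of the 9 genes fell (Fn1, Postn, Fbln1, Eln, Lum and Bgn), where 14.3% of all genes fell, and none rose, where 10.4% of all genes rose and the arrays of 14.7% were higher without overlap. The median change of the 9 genes was -0.57, beside -0.019 over all genes. In 8 of the 9, all but Tnc, the 16-day arrays were lower than the 8-day arrays without overlap, against 21.5% of all genes. Of the 6 calls, 4 were at least 1.5-fold. With centred arrays 5 fell, where 2173 of all 19935 genes fell, against 2843 in the main fit. Without replicate 1 of 8 days and replicate 2 of 16 days together 6 fell, where 2681 of all genes did.

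Between 16 and 24 days 4 of the 9 genes fell (Fn1, Fbln1, Eln and Bgn), where 20.1% of all genes fell, and 1 rose (Postn), where 13.2% of all genes rose. The median change was -0.35, beside -0.16 over all genes. The median was -0.14 without replicate 1 of 24 days and -0.52 without replicate 2 of 24 days. In 3 of the 9 the 24-day arrays were lower than the 16-day arrays without overlap, where 39.1% of all genes were, and in 1 (Postn) they were higher, where 16.5% of all genes were. Over all genes 4004 fell and 2641 rose, but 1927 fell and 2861 rose with each array centred on its median, and under that scaling 3 of the 9 genes fell and 1 rose. With that centring the median change of all genes was 0.013, -0.076 and -0.058 at 16 versus 8, 24 versus 16 and 24 versus 8 days, and that of the 9 genes was -0.54, -0.26 and -0.96. Fn1, Fbln1 and Eln fell and Postn rose under it.

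**Figure D3:**
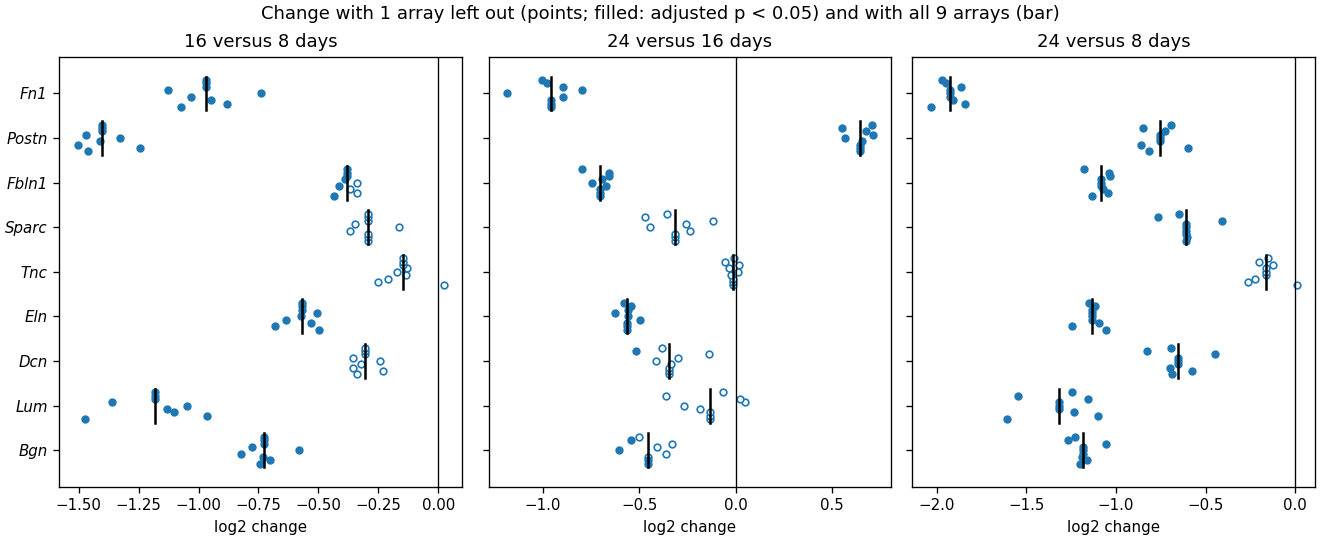
Log2 change (x axis) of each of the 9 genes (y axis) in the 3 comparisons with each of the 9 arrays left out in turn (points, filled where the adjusted p was under 0.05) and with all 9 arrays (black bars). Points are filled for 8 genes in every fit at 24 versus 8 days, and for Bgn in 4 of 9 fits at 24 versus 16 days.

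Genes with the most similar course over the 9 arrays were found by the smallest root mean square difference of the log2 values. The 9 genes themselves and genes with Gm, Rik, LOC or accession style symbols were left out of the ranking. The difference is in log2 units and depends on the size of a gene's changes. For Lum the nearest was Ogn, which encodes the small leucine-rich proteoglycan osteoglycin, at 0.17, followed by Tmem45a at 0.19. For Postn the nearest were Pappa, a protease of insulin-like growth factor binding proteins, at 0.26, and the transcription factor Snai2 at 0.26. Among the genes ranked, the nearest to Postn lay further off than the nearest to each of the other 8. For Fn1 they were Prss35 and Septin11, at 0.070 and 0.080. The nearest genes were Cnnm3 and Nop56 for Fbln1 (0.076 each), Tnik and Tmed9 for Sparc (0.11 each), and Eif4ebp1 and Lfng for Eln (0.087 and 0.0997). They were Hadh and Resf1 for Dcn (0.087 and 0.097), Pxmp4 and Fads1 for Bgn (0.067 and 0.072), and G6pc and Ptma-ps2 for Tnc (0.058 and 0.062). All these values share the same 9 arrays.

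Lists of related matrix genes were read against the shares of all genes that fell, which were 14.3% at 16 versus 8 days, 20.1% at 24 versus 16 days and 35.2% at 24 versus 8 days. Of 18 measured partners of elastin and the fibrillins, 11 fell at 16 versus 8 days, 8 at 24 versus 16 days and 16 at 24 versus 8 days, and none rose. Their median changes were -0.57, -0.36 and -0.84. Lox, the lysyl oxidase that cross-links elastin and collagen, fell by 1.44 ± 0.18 at 16 versus 8 days and by 2.08 ± 0.18 at 24 versus 8 days. Mfap2, a microfibril glycoprotein, fell by 1.12 ± 0.10 and Ltbp3, which binds latent TGF-beta, fell by 1.07 ± 0.11 at 16 versus 8 days. Mfap4, a microfibril-associated glycoprotein, fell by 0.70 ± 0.13 and Ltbp4 fell by 0.76 ± 0.15 at 24 versus 16 days. With centred arrays the falls at 24 versus 16 days numbered 5.

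The other small leucine-rich proteoglycans were mixed. Of 13 measured, 2 fell and 2 rose at 16 versus 8 days, 2 fell and 1 rose at 24 versus 16 days, and 5 fell and 2 rose at 24 versus 8 days. The list medians were -0.034, -0.12 and -0.18, near those of all genes. Ogn fell by 1.06 ± 0.20 and asporin, Aspn, fell by 0.75 ± 0.21 at 16 versus 8 days, and the Aspn call was lost without any of 4 arrays (adjusted p up to 0.0945). Prelp, a proteoglycan that anchors basement membranes, rose by 0.87 ± 0.15 at 16 versus 8 days, and epiphycan, Epyc, rose by 1.41 ± 0.13 at 24 versus 16 days. Optc fell by 0.40 ± 0.09 and Chad by 0.35 ± 0.11 at 24 versus 16 days. The Chad call was lost with centred arrays and without replicate 3 of 8 days, any array of 16 days, or replicate 2 or 3 of 24 days (adjusted p up to 0.137), and the Optc call was lost without replicate 1 of 16 days (adjusted p 0.0533).

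Of 25 other matricellular and adhesive glycoproteins measured, 15 fell and 1 rose at 24 versus 8 days (median -0.51). In the intervals most were not called: 9 fell and 1 rose at 16 versus 8 days (median -0.28), and 10 fell and 1 rose at 24 versus 16 days (median -0.34). Thrombospondin 2, Thbs2, fell by 1.68 ± 0.15, the SPARC-related Smoc1 fell by 1.09 ± 0.14 and Fstl1 fell by 1.02 ± 0.13 at 16 versus 8 days. Tgfbi, an adhesive protein related to periostin by its domains, fell by 1.12 ± 0.23 at 24 versus 16 days, in the interval in which Postn rose. Comp, a pentameric thrombospondin of cartilage, was the gene that rose in each comparison, by 1.56 ± 0.20 at 24 versus 16 days. Its smaller rise at 16 versus 8 days, 0.62 ± 0.20 (adjusted p 0.0470), is named after its value was seen, and no gene of the list rose there without the 2 arrays with raised olfactory receptors. Without these 2 arrays 15 genes of the list fell at 24 versus 16 days, and with centred arrays 6 did.

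Of 10 large proteoglycans and link proteins 5, 4 and 8 fell at 16 versus 8, 24 versus 16 and 24 versus 8 days, and none rose. Versican, Vcan, changed by -1.50 ± 0.32, brevican, Bcan, by -1.32 ± 0.23 and the basement membrane proteoglycan perlecan, Hspg2, by -0.88 ± 0.12 at 16 versus 8 days. Of the 20 enzymes that build the sugar chains carried by decorin and biglycan, 9, 11 and 16 fell in the same comparisons, and 1 rose, at 24 versus 8 days, the kinase gene Fam20b by 0.28 ± 0.087, named after its value was seen. Chst14, the sulphotransferase of dermatan sulphate, fell by 0.87 ± 0.10 at 16 versus 8 days and by 0.70 ± 0.10 at 24 versus 16 days. The chain polymerase Chsy1 fell by 0.84 ± 0.11 and by 0.66 ± 0.11 in the same comparisons. With centred arrays 5 of the 20 enzymes fell at 24 versus 16 days.

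Of 14 receptors of fibronectin and tenascin, 11, 10 and 13 fell at 16 versus 8, 24 versus 16 and 24 versus 8 days, with median changes of -0.54, -0.46 and -1.05 and no rise. The integrin chains Itga4 and Itgb8 fell by 1.49 ± 0.24 and 0.98 ± 0.23 at 16 versus 8 days, and the syndecan Sdc4 fell by 0.72 ± 0.13 at 24 versus 16 days. With centred arrays 6 receptors fell at 24 versus 16 days. Of 10 collagen chains that decorin, lumican and biglycan bind or lie beside, 7, 7 and 9 fell and none rose. Col1a1 and Col1a2, the chains of type I collagen, fell by 0.85 ± 0.09 and 0.84 ± 0.11 at 16 versus 8 days, and Col6a1 of type VI collagen fell by 0.52 ± 0.08 at 24 versus 16 days.

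**Figure D4:**
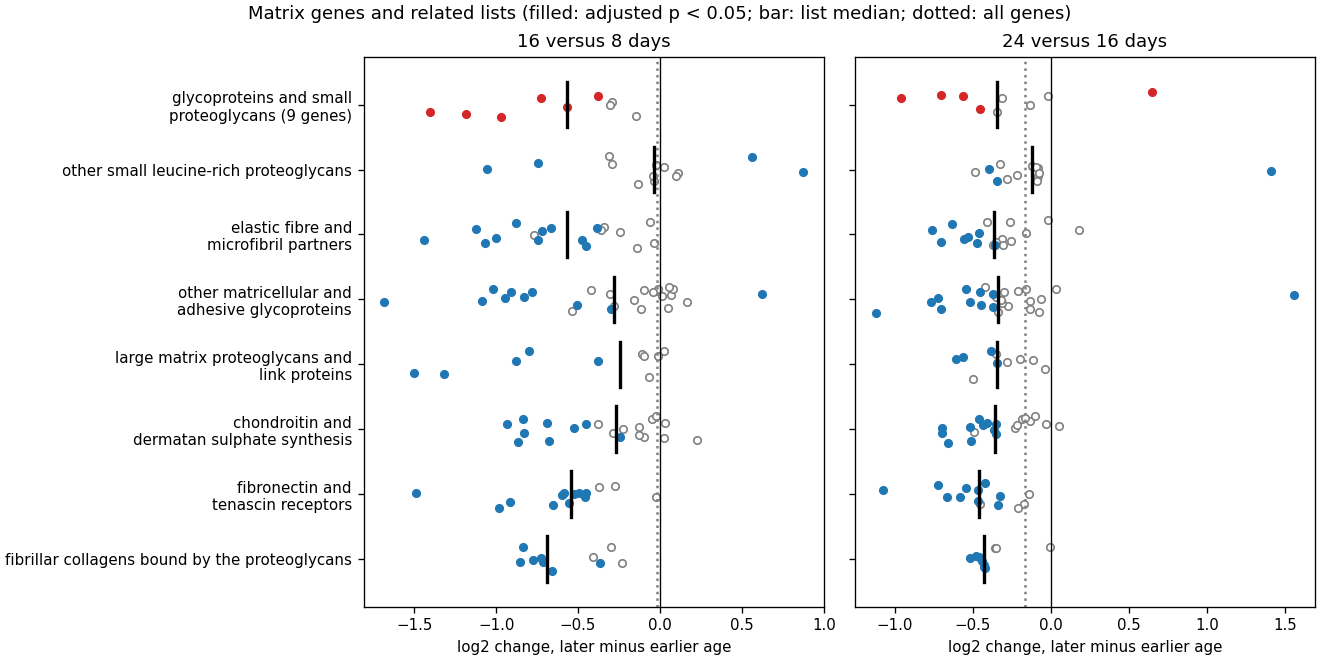
Log2 change, later minus earlier age (x axis), of single genes in the 9 matrix genes (red) and in 7 related lists (blue, y axis) at 16 versus 8 days and at 24 versus 16 days, filled where the adjusted p was under 0.05. Black bars are list medians and the dotted line is the median of all genes. The list of other small proteoglycans has its median near that of all genes, and the other lists lie below it.

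Markers of somatic cells were read over the same ages, and their part in the results was not tested. Of all genes 14.3%, 20.1% and 35.2% fell at 16 versus 8, 24 versus 16 and 24 versus 8 days. In the same comparisons 10.4%, 13.2% and 19.2% of all genes rose. Of 9 peritubular myoid markers 6 fell at 16 versus 8 days, 4 fell and 1 rose at 24 versus 16 days, and 8 fell and 1 rose at 24 versus 8 days. Their mean relative to the gene medians was 0.25 to 0.35 over the arrays of 8 days, -0.094 to 0.022 at 16 days and -0.22 to -0.098 at 24 days. Without the 2 arrays with raised olfactory receptors 3 of them fell at 16 versus 8 days. Acta2, smooth muscle actin, fell by 0.34 ± 0.11 and by 0.61 ± 0.11 in the 2 intervals, and the marker that rose was Actg2, a smooth muscle gamma actin, by 1.82 ± 0.23 at 24 versus 16 days. Of 6 interstitial mesenchyme markers 6, 4 and 6 fell, with means of 0.60 to 0.92, -0.38 to 0.11 and -0.89 to -0.55 at 8, 16 and 24 days. Of 9 Sertoli cell markers 5, 6 and 7 fell, with means of 0.55 to 0.74, -0.22 to 0.18 and -0.65 to -0.41.

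Of 6 measured Leydig cell markers 6 fell at 16 versus 8 days, 2 fell and 1 rose at 24 versus 16 days, and 6 fell at 24 versus 8 days, and the median changes were -1.90, 0.05 and -1.68. Their mean was 1.19 to 1.54 at 8 days, -0.72 to -0.28 at 16 days and -0.99 to -0.17 at 24 days. Of 7 endothelial markers 6, 3 and 7 fell, beside 14.3%, 20.1% and 35.2% of all genes. Of 6 macrophage markers 2 fell at 16 versus 8 days and 3 at 24 versus 8 days, beside 14.3% and 35.2% of all genes. The median change of the macrophage markers was -0.11 at 24 versus 16 days, and their means were 0.12 to 0.41, -0.14 to 0.050 and -0.18 to 0.057 at 8, 16 and 24 days. Spermatogonial markers fell in 4, 5 and 5 of 5 genes, with means of 0.55 to 0.65, -0.40 to 0.091 and -0.91 to -0.77. With centred arrays the falls at 24 versus 16 days numbered 2 for myoid, 3 for mesenchyme, 5 for Sertoli cell, 1 for Leydig cell and 1 for endothelial markers, and myoid falls at 16 versus 8 days numbered 4.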

How the data were processed

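Total RNA of whole testis was labelled with biotin for Affymetrix whole-transcript arrays, per the labels' protocols. The authors deposited log2 values of 28815 rows, centred on the median array of each row. The sources used here do not give the background correction, normalization or summary of the signals. The 38964 blank cells were taken as 0, since the median of every row is then 0. The 21780 rows with 1 gene symbol were averaged per gene (19935 genes), and gene IDs of 21689 rows matched RefSeq (GRCm38.p6), used for names and chromosomes.

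The test was limma 3.58.1 (R 4.3.3) with lmFit and eBayes and a mean per age over the 9 arrays. Residual degrees of freedom were 6, and the prior added 3.82. Tests were 2-sided, with Benjamini-Hochberg adjustment over all genes and a threshold of 0.05. Errors of changes are moderated standard errors, and 95% intervals use the moderated t. On simulated data at 16 versus 8 days, the fit recovered 31.3% of 67 log2 changes of 0.5 and 88.1% of 67 changes of 1. It recovered 95.5% of 66 changes of 2 and called 8 of 19735 unchanged genes. In that simulation a change of 0.5 often went uncalled. Far fewer genes changed there than the 2843 falls and 2071 rises called in the data, which makes the adjustment stricter. The recovery in the data can thus differ, and a true change of 0.5 or less can still go uncalled. No label says that replicate numbers pair samples, so no block was used. Named genes are the matrix genes, up to 3 called genes per related list and comparison with the largest change, and the 2 genes nearest to each matrix gene. Some that the rule gives are not printed, and among the markers Acta2 and Actg2 were chosen after their values were seen. The matrix genes and lists were chosen with earlier results of these data known. Figures used matplotlib 3.10.9.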

Additional observations from a re-analysis of the deposited data

Results flagged for a closer look

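The difference between the change of Postn in the second interval and that in the first was 2.05 on the log2 scale (adjusted p 0.00110 by limma), because the gene fell by 16 days and rose by 24 days. It was lower in 3 of 3 arrays of 16 days than in any array of 8 days, and higher in 3 of 3 arrays of 24 days than in any array of 16 days. With 1 array left out, the difference ran from 1.89 to 2.18 and was called in 9 of 9 fits.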

How the results depend on the processing

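The calls at 24 versus 8 days were the most stable, with 8 falls in each fit that left out 1 array. The 8 falls also held with centred arrays, array weights, robust eBayes and blanks left missing. Over all genes 7015 fell in that comparison, and 5829 to 7386 with 1 array left out. The all-gene falls were 5236 with centred arrays and 8359 with array weights. They were 6959 with robust eBayes and 7147 with blanks left missing. With 1 array left out, 5 to 6 matrix genes fell at 16 versus 8 days, 3 to 5 fell at 24 versus 16 days, and their median changes ran from -0.68 to -0.50 and from -0.52 to -0.14. Over all genes the falls ran from 1855 to 3099 at 16 versus 8 days and from 1672 to 5196 at 24 versus 16 days. At 24 versus 16 days 1927 genes fell with centred arrays and 2423 with blanks left missing, against 4004, and 1672 and 1764 without replicate 1 of 16 days and without replicate 1 of 24 days.

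No label says that replicate numbers pair the samples. The correlations of same-numbered deviations between ages ran from -0.46 to 0.20 for the numbered arrays. For replicate 3 they were 0.45 at 16 and 8 days, 0.045 at 24 and 8 days and 0.034 at 24 and 16 days. Between differently numbered arrays the correlations ran more widely, from -0.67 to 0.60. The lowest was for 8-day replicate 1 with 16-day replicate 3. The highest was for 8-day replicate 1 with 16-day replicate 2, the arrays with raised olfactory receptors. Deviations from means of 3 arrays are not independent, so these correlations cannot decide whether samples were paired. A replicate block on the 6 numbered arrays left 3, 1 and 7 falls and 0 rises among the matrix genes at 16 versus 8, 24 versus 16 and 24 versus 8 days, and without the block the same 6 arrays gave 2, 1 and 7 falls and 1 rise (Postn at 24 versus 16 days), an alternative chosen after seeing the data. The block ended the call of the Postn rise (adjusted p 0.0583, against 0.0480 without it). Over all genes the block gave 809, 96 and 4571 falls and 1162 and 1198 rises in the first 2 comparisons, and without it 1186 and 290 falls and 1299 and 1286 rises. Fewer samples were used there. Of the calls at least 1.5-fold, 2 matrix genes fell at 24 versus 16 days, and over all genes 1257, 777 and 3913 fell and 1351 rose at 16 versus 8 days.

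Only uncalled changes turned their sign. For Tnc at 16 versus 8 days, leaving out 1 array gave -0.25 to 0.023, positive without replicate 1 of 8 days. At 24 versus 8 days it gave -0.27 to 0.0085, again positive without that array, and 0.0085 without both arrays with raised olfactory receptors. At 24 versus 16 days the change of Tnc was 0.072 with centred arrays, 0.012 without both of those arrays, and -0.057 to 0.019 with 1 array left out, positive without replicate 2 of 16 days or replicate 1 of 24 days. The change of Lum at 24 versus 16 days was 0.12 on the 6 numbered arrays, with or without the replicate block, and -0.36 to 0.048 with 1 array left out, positive without replicate 3 of 16 days or replicate 1 of 24 days. The causes were not tested. The array weights did not converge fully, and signal over background cannot be judged from centred values.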

Other observations

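Dcn and Lum lie next to each other on chromosome 10, followed by the small leucine-rich proteoglycan genes Kera and Epyc. Kera, the keratocan gene, changed by -0.07 at 24 versus 8 days (adjusted p 0.594). Epyc rose by 0.56 ± 0.13 at 16 versus 8 days (adjusted p 0.0118) and by 1.97 ± 0.13 at 24 versus 8 days (adjusted p 1.34e-06), while Dcn changed by -0.65 ± 0.17 and Lum by -1.31 ± 0.28 in that comparison. The next protein-coding gene beyond Epyc, Ccer1, rose by 2.20 at 24 versus 8 days (adjusted p 5.79e-06, limma). The difference between neighbours was not itself tested.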
